A study of Mus musculus with 5 samples.

Results

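The comparison described here is that of the whole cell suspension of synchronized mouse testis at 556.8 h with that at 350.4 h. All barcodes (the sequence tags that stand for single cells or droplets) with at least 1000 UMIs (counted RNA molecules) and a share of mitochondrial UMIs under 50% were taken, whatever cell type they held, and their UMIs were summed within each library. This gave 14605 barcodes, 5376 at 350.4 h and 9229 at 556.8 h, of 46451 barcodes deposited for the 5 libraries of the series. The sums held 91496338 and 117534431 UMIs. The question was which genes were higher and which lower in the RNA of the suspension between these times.

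The series has 1 library of synchronized whole testis for each of 0, 144, 350.4, 556.8 and 763.2 h, and its design text refers to repeated passages through stages VIII to IX of the seminiferous epithelium. The library at 0 h carries the label Control and the other 4 the labels EP1 to EP4 in time order, so that 350.4 h is EP2 and 556.8 h is EP3. Both groups compared here were whole testis, synchronized, and dissociated with collagenase, DNase and trypsin by 1 protocol. The sources used here do not state strain, age, the agent of synchronization, from when the hours were counted, or how many animals went into a library. Each time had 1 library, so no difference below has a replicate check or a test. The 95% intervals cover counting error only, and the differences describe these 2 libraries. In summed counts of a suspension, fewer cells of a type and less RNA per cell cannot be told apart.

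Spermatogenesis turns spermatogonia into spermatocytes, which pair and recombine their chromosomes, and then through the meiotic divisions into round and elongating spermatids. In elongating spermatids histones are replaced first by transition proteins and then by protamines, which pack the nucleus tightly, while an acrosome and a tail are built. Many of these genes are transcribed in germ cells alone, and several metabolic enzymes are exchanged for germ cell forms while the X chromosome is silenced in pachytene spermatocytes.

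The libraries differed in more than time. The median barcode held 6987.5 UMIs at 350.4 h and 6075 at 556.8 h, but 35.1% of the kept barcodes at 350.4 h lay under 2500 UMIs against 1.45% at 556.8 h. Barcodes of 20000 UMIs or more held 77.1% of the summed UMIs at 350.4 h and 55.2% at 556.8 h. The mitochondrial share of all kept UMIs was 8.49% and 3.98%. The kept barcodes of the 2 libraries had 8 barcode sequences in common. The share of these differences in the results was not tested, except that ratios were also taken within 5 ranges of UMIs per barcode.

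Of 27998 features, 11055 had a mean level of at least 5 CPM (UMIs of a gene per 1000000 summed UMIs of the library) over the 2 libraries and are called measured. A gene is called higher at 556.8 h where the 95% interval of its CPM ratio lay wholly above 2-fold, and lower where it lay wholly below 0.5 times. By this rule 2273 genes (20.6% of those measured) were higher, 3948 (35.7%) were lower and 4834 lay between. The median log2 ratio of all measured genes was -0.55. The genes called higher held 9.19% of the UMIs at 350.4 h and 37.8% at 556.8 h. Ratios centred on that median gave 3106 higher and 2376 lower genes, against 2273 and 3948 as counted.

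**Figure D1:**
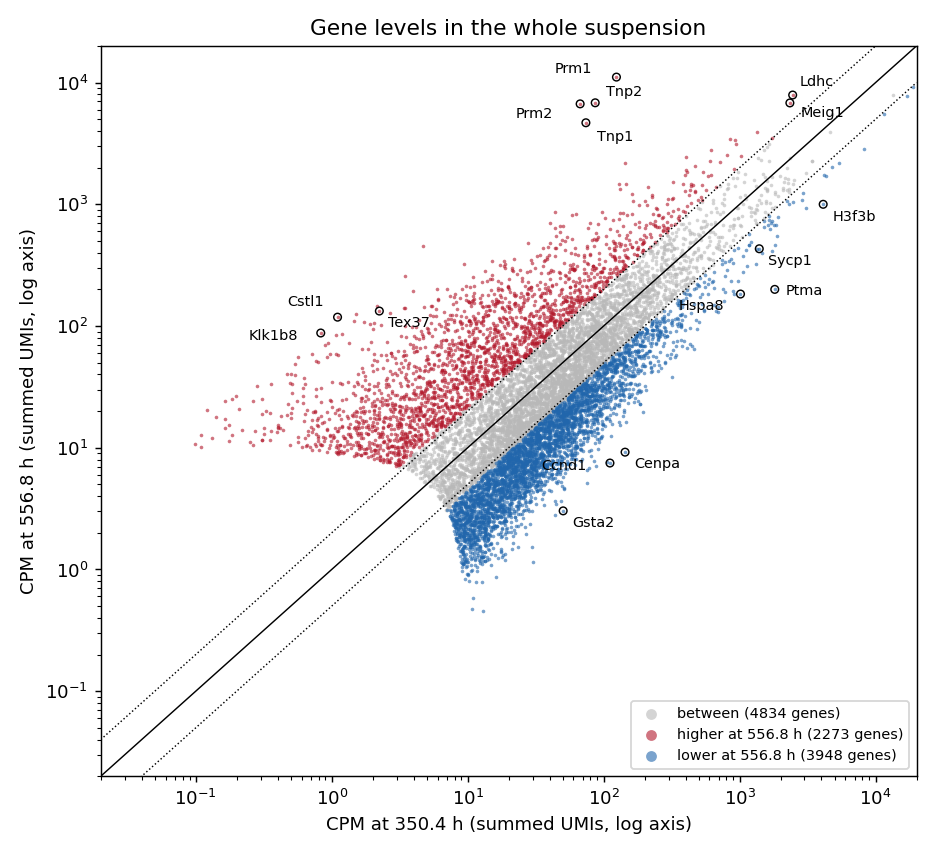
Each point is 1 of the 11055 genes measured, with its CPM in the summed suspension at 350.4 h on the x axis and at 556.8 h on the y axis, both on log axes. The solid line marks equal levels and the dotted lines 2-fold, and the protamine and transition protein genes stand far above other genes of like level at 350.4 h, with Prm1 at 124 CPM at 350.4 h and 11091 CPM at 556.8 h.

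Genes near 0 in the earlier libraries were common among those higher. Of the 2273 higher genes, 1070 (47.1%) had under 1 CPM at both 0 and 144 h, against 1169 (10.6%) of all measured genes and 4 (0.101%) of the lower genes. The filter builds in part of this contrast. A gene near 0 also at 350.4 h was measured only through its level at 556.8 h and had to be called higher. More than 4-fold, by the interval, were 1191 genes higher and 1295 lower. An interval wholly beyond 10-fold was found for 412 genes in the upward direction and for 39 genes in the downward one. Of the higher genes, 1152 had their highest level of all 5 libraries at 556.8 h and 1096 at 763.2 h. The lower genes had theirs mostly at 144 h (1944 genes), with 1019 at 0 h and 972 at 350.4 h.

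Nuclear packing genes lead the comparison, and the stretches before the start of 4 of them are shown because their levels went up together. Each stretch has 130 bases and is written 5′ to 3′ on the strand of the gene, from RefSeq promoter windows on GRCm38.p6. Capitals mark a match to TGANGTCA, a relaxed form of the cyclic AMP response element that the testis activator CREM binds, or to TATAAA, either strand being searched. The letters searched were chosen after the sequences were seen. Distances are from the RefSeq start. GENCODE has longer transcripts of Prm1 and Prm2 that start further upstream, so the gene spans given later reach past these stretches, which lie in the first intron of those transcripts. The Prm1 stretch ends before the first exon of another GENCODE transcript, and the match counted for Prm1, which reaches into that exon, is not shown.
Prm1, chr16:10796887-10797016, minus strand, ending 64 bases before the start: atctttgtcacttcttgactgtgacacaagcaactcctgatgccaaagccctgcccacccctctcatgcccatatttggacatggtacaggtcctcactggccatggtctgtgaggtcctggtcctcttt
Prm2, chr16:10792126-10792255, minus strand, ending 21 bases before the start: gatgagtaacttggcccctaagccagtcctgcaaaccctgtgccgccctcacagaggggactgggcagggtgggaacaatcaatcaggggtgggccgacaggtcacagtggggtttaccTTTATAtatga
Tnp1, chr1:73015920-73016049, minus strand, ending 21 bases before the start: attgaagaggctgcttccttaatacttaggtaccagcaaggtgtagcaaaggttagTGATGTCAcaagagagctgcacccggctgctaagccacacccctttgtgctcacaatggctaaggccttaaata
Tnp2, chr16:10788676-10788805, minus strand, ending 21 bases before the start: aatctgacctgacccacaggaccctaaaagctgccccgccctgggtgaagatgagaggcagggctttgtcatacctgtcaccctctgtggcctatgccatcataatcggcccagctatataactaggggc

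The RefSeq table gives windows of 300 bases, 250 before and 50 after the start, for 1615 of the 2273 higher genes. TGANGTCA was found in 4 of the 6 windows of the nuclear packing list (Prm1, Prm3, Tnp1 and Hils1), in 14.7% of 2102 windows of higher genes and in 5.79% of 3800 windows of lower genes. Its share was 8.53% in the windows of all measured genes and 8.83% in the 32851 windows of the table. The full palindrome TGACGTCA, which the relaxed form includes, was in 2.81% of the windows of higher genes, 2.74% of those of lower genes and 3.49% of those of all measured genes. Windows of higher genes held fewer CpG dinucleotides, with a median of 10 against 22 in lower genes and 21 in all measured genes. A match describes letters and not a bound site.

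The protamines, the small basic proteins that finally wrap sperm DNA, went from traces to leading RNAs of the suspension. Prm1 (chromosome 16, 10796326 to 10805839, GRCm38) had 0.0133, 0, 124, 11091 and 13596 CPM in time order, so that the 556.8 h library stood 89.3-fold above the 350.4 h library (interval 87.6 to 91.0). Prm2, its neighbour (10791380 to 10796134), had 0.0133, 0, 67.2, 6684 and 10208 CPM, a ratio of 99.5 (97.1 to 102). Both were near 0 in the early libraries and highest at 763.2 h. Prm3, a related acidic protein gene of the same cluster, had 47.4 CPM at 350.4 h and 588 at 556.8 h, a ratio of 12.4 (12 to 12.8).

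The transition proteins, which take the place of histones before protamines arrive, followed. Tnp2 (chromosome 16, 10787936 to 10788660) had 0, 0, 86.7, 6820 and 5837 CPM in time order and a ratio of 78.7 (77.0 to 80.5). Tnp1 (chromosome 1, 73015074 to 73015909) had 4.2, 2.54, 74.0, 4675 and 5315 CPM and a ratio of 63.1 (61.7 to 64.7). Tnp2 was the only member of the list with a lower level at 763.2 h than at 556.8 h. The spermatid linker histones Hils1 and H1fnt had ratios of 13.2 (12.8 to 13.6) and 16.8 (16 to 17.6). All 7 members were thus higher, with a median log2 ratio of 5.98 beside -0.55 over all measured genes, and their summed level went from 468 to 30829 CPM.

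At 350.4 h these RNAs sat in very few barcodes. Only 3 barcodes held 50% of the UMIs of Prm1 in that library, and likewise 3 for Prm2 and 3 for Tnp2, whereas at 556.8 h the numbers were 192, 176 and 184. Without the 10 barcodes richest in UMIs of the list in each library, a setting added after the data were seen, Prm1 at 350.4 h dropped to 38.5 CPM and its ratio became 274 (265 to 284). The ratio became 302 for Prm2, 210 for Tnp2 and 129 for Tnp1, but 16.8 for Prm3. The sizes of these ratios therefore rest on a handful of barcodes at 350.4 h. Because so few barcodes held these UMIs at 350.4 h, leaving out the richest could hardly have lowered a ratio. This setting is thus no check of the direction.

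At 556.8 h the list reached nearly every barcode. It took more than 10% of a barcode's UMIs in 7 barcodes (0.130%) at 350.4 h and in 736 (7.97%) at 556.8 h, and these held 49.3% and 77.7% of its UMIs. Barcodes between 5% and 10% numbered 5 and 265. The median share of a barcode's UMIs was 0.0128% and 1.30%. To set this against RNA outside its own cells, barcodes with at least 2% of their UMIs in the Sertoli marker list were taken, 701 at 350.4 h (median 2614 UMIs) and 109 at 556.8 h (median 23130 UMIs). No deposited barcode at 556.8 h lay under 2443 UMIs, so these 2 numbers are not counted over the same depths. Sertoli cells nurse germ cells and should not make protamines. The list took 0.0128% and 0.540% of the UMIs of these barcodes.

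**Figure D2:**
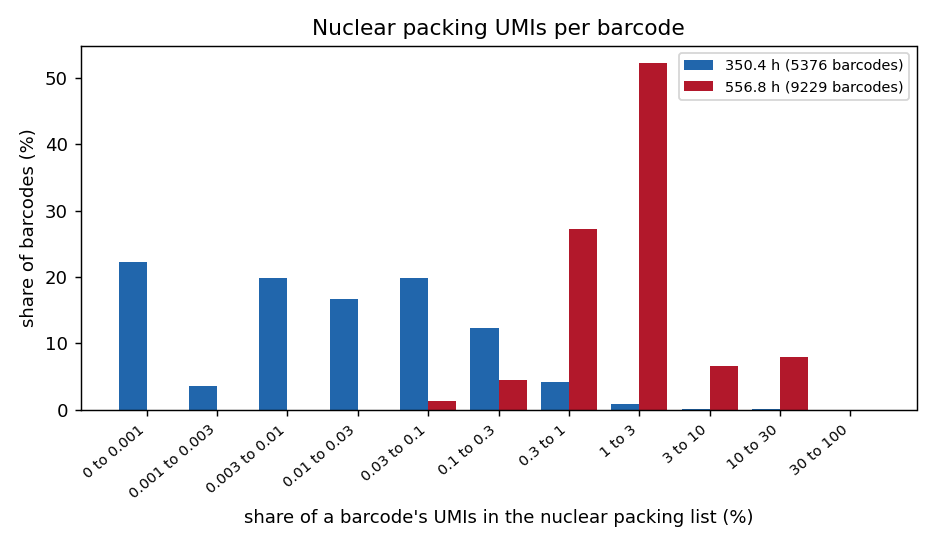
Bars give the percentage of kept barcodes (y axis) whose share of UMIs in the nuclear packing list fell in each range (x axis, %), for 5376 barcodes at 350.4 h and 9229 at 556.8 h. At 556.8 h most barcodes carried between 0.3% and 3%, with a further group above 3%, whereas at 350.4 h the largest range was that under 0.001%.

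Thinned to 1000 UMIs per barcode, 10.9% of barcodes had a Prm1 UMI at 350.4 h and 94.1% at 556.8 h (33.3% and 100% before thinning). In the Sertoli-rich barcodes the thinned shares were 11.7% and 81.7%, so the 2 shares at 350.4 h were alike. The level of Prm1 at 350.4 h was 32.8 CPM in Sertoli-rich barcodes and 124 CPM in the whole suspension. How much of this RNA came from outside the cells was not tested. Prm2 gave 6.44% and 84.2% against 5.14% and 45.0%. Prm1 in Sertoli-rich barcodes stood at 2104 CPM at 556.8 h, below the 11091 CPM of the whole suspension. Most barcodes at 556.8 h thus carried at least some protamine RNA, the Sertoli-rich ones included.

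The 12 genes with the highest ratios were ranked by the lower interval bound, among named genes of at least 50 CPM at 556.8 h. Of these, 8 lie outside the list, and their levels were lower. Cstl1, a cystatin-like gene, had 0.0133, 0, 1.10, 118 and 104 CPM in time order and a ratio of 107 (88.1 to 132). Klk1b8, a member of the kallikrein protease family, had 0, 0, 0.831, 87.6 and 107 CPM and a ratio of 106 (84.2 to 134). Car2, a carbonic anhydrase that somatic cells also use, had 0.849, 2.52, 0.940, 71.9 and 123 CPM and a ratio of 76.5 (61.9 to 95.8). All 3 stood far above their other libraries at 556.8 and 763.2 h.

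A pair of serine protease genes that lie side by side on chromosome 14 had another course. Prss52 (64104286 to 64113755) had 1.45 CPM at 350.4 h, 111 at 556.8 h and 24.8 at 763.2 h, a ratio of 76.2 (64.2 to 91.1). Prss51 (64086234 to 64097678) had 0.798, 50.6 and 15.8 CPM, a ratio of 63.4 (50.3 to 81.0). Both thus peaked at 556.8 h. Oxct2a, a germ cell enzyme of ketone body use with a near-identical copy that can share reads, had a ratio of 78.6 (63.3 to 99). Ttc24 and Tex37 had ratios of 72.4 (59.9 to 88.3) and 59.2 (51.6 to 68.3).

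Without the 10 barcodes named above the ratio of Cstl1 became 295, that of Klk1b8 419, of Car2 250, of Oxct2a 210, of Prss52 200, of Ttc24 181, of Prss51 146 and of Tex37 110. After thinning, Cstl1 had a UMI in 0.279% of barcodes at 350.4 h and 10.2% at 556.8 h, against 0% and 0.917% of Sertoli-rich barcodes. Within each of the 5 ranges of UMIs per barcode all 12 genes were higher at 556.8 h, with lowest ratios from 7.26 (Tex37) to 21.7 (Cstl1).

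**Figure D3:**
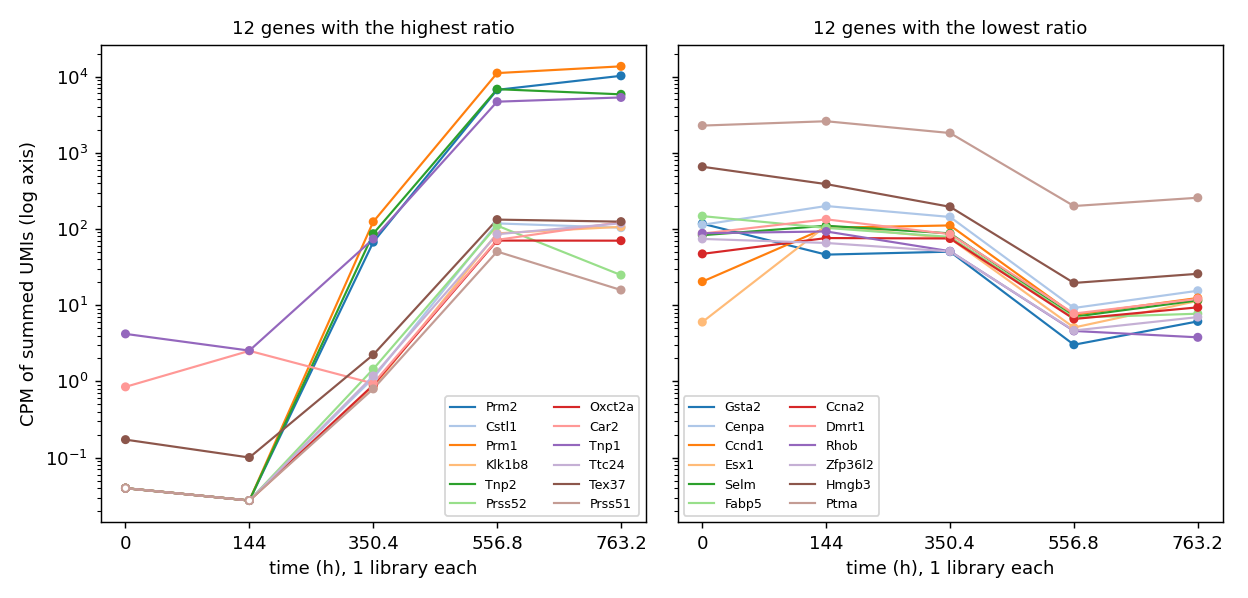
CPM of summed UMIs (y axis, log) in each of the 5 libraries (x axis, equally spaced times in h) for the 12 genes with the highest ratio (left) and the 12 with the lowest (right) at 556.8 over 350.4 h. Open points are at or under 3 counts and are drawn at the level of 3 counts. The genes on the left climb at 350.4 h or 556.8 h, and those on the right drop between these times and stay low at 763.2 h.

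In CPM gained, with predicted genes again left out, the order was another. Beside Prm1, Prm2, Tnp1 and Tnp2, the 10 largest gains were those of Ldhc, Meig1, Rbakdn, Lyar, Gstm5 and Ropn1l. Ldhc, the lactate dehydrogenase of germ cells, had 2.53, 22.8, 2456, 7902 and 6264 CPM in time order and a ratio of 3.22 (3.20 to 3.23). Meig1, which is needed for the sperm tail, had 38.0, 85.9, 2343, 6804 and 5973 CPM and a ratio of 2.90 (2.89 to 2.92). Both were already abundant at 350.4 h, unlike the protamines. Rbakdn went from 853 to 3442 CPM, Lyar from 1351 to 3935, Gstm5, a glutathione transferase, from 929 to 3381, and Ropn1l, a fibrous sheath protein, from 944 to 3155.

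The UMIs of Ldhc were spread over more barcodes than those of the protamines. For Ldhc 50% of the UMIs lay in 133 barcodes at 350.4 h and in 533 at 556.8 h (2.47% and 5.78% of barcodes), and after thinning 55.0% and 97.0% of barcodes had one, against 45.6% and 69.7% of Sertoli-rich barcodes. In Sertoli-rich barcodes Ldhc stood at 245 and 1664 CPM, below the whole suspension in both libraries.

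Transcription and RNA regulators of the spermatid programme were split. Of 21 measured members 10 were higher, 2 were lower and 9 lay between, with a median log2 ratio of 1.06. Here and in every list below, such counts are to be read beside the 20.6% higher and 35.7% lower among all measured genes. Crem, the activator of many spermatid genes, had 15.3, 19.8, 88.6, 227 and 327 CPM in time order and a ratio of 2.56 (2.50 to 2.63). Its testis coactivator Fhl5 had 0.0663, 0, 12.7, 181 and 204 CPM and a ratio of 14.3 (13.5 to 15.2). Tbpl1, a relative of the TATA-binding protein used in spermatids, went from 171 to 686 CPM (4.01, 3.94 to 4.08), Gtf2a1l, its partner in the basal machinery, from 55.3 to 249 (4.49, 4.36 to 4.63), and Spata24 from 247 to 913 (3.69, 3.64 to 3.75).

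Other regulators gave smaller ratios or opposite ones. Rfx2, which drives genes of cilia and spermatids, had 38.4 and 72.4 CPM (1.89, 1.81 to 1.96) and Sox30 36.4 and 57.8 CPM (1.59, 1.52 to 1.66), both short of the 2-fold rule. Mybl1, the pachytene activator, had 78.3 and 70.3 CPM, and Ybx2, which stores germ cell mRNAs, 685 and 862. The X-linked Taf7l and the chromatin reader Pygo2 were lower, with ratios of 0.368 (0.358 to 0.378) and 0.367 (0.336 to 0.400).

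Histone variant genes, not all of them particular to the germ line, mostly went the other way from the packing genes. Of 9 measured variants 6 were lower, 2 lay between and 1 was higher, with a median log2 ratio of -1.42. Among all measured genes 35.7% were lower and 20.6% higher. H3f3b, 1 of 2 genes for histone H3.3, had 2598, 2384, 4118, 999.9 and 1892 CPM in time order, the largest loss of CPM once mitochondrial, ribosomal protein, haemoglobin and predicted genes were left out, with a ratio of 0.243 (0.241 to 0.244). H3f3a, the other gene for the same protein, had 1270 and 863 CPM (0.679, 0.674 to 0.685). In Sertoli-rich barcodes at 350.4 h H3f3b and H3f3a stood at 1503 and 977 CPM. The testis linker histone Hist1h1t had a ratio of 0.446 (0.430 to 0.463), and Hist1h2ba and Hist1h2aa, the testis forms of H2B and H2A, had 0.215 (0.205 to 0.224) and 0.184 (0.177 to 0.190). H2afv, a replacement form of H2A, went from 368 to 103 CPM (0.281, 0.275 to 0.286). H2afb1, a short H2A variant of spermatids, was the exception with 9.34 and 323 CPM (34.5, 32.3 to 37.0).

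Acrosome genes are those for the enzyme sac over the sperm head and its fusion proteins. Of 22 measured members 20 were higher and none was lower, against 20.6% and 35.7% of all measured genes. The list's median log2 ratio was 1.68, and 17 of the 22 had their highest level at 763.2 h. Crisp2 had 0.265, 3.68, 472, 2051 and 2213 CPM in time order (ratio 4.35, 4.3 to 4.39). Spink2, an inhibitor of the acrosomal proteases, went from 325 to 1539 CPM (4.73, 4.67 to 4.79) and Dkkl1 from 441 to 1407 (3.19, 3.15 to 3.22). Acr, the protease acrosin, had 38.2 and 119 CPM (3.12, 3.01 to 3.24).

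Several acrosome genes were late rather than large at 556.8 h. Spaca1, an inner membrane protein of the acrosome, had 42.3, 75.4 and 394 CPM at 350.4, 556.8 and 763.2 h, and its first ratio of 1.78 (1.72 to 1.85) did not reach the rule. Spam1, the sperm hyaluronidase, had 7.76, 11.7 and 90.2 CPM (1.5, 1.37 to 1.65). Izumo1, the fusion protein that meets the egg, had 8.30, 22.7 and 82.8 CPM (2.74, 2.52 to 2.97). The direction of the list depended on depth: among barcodes from 2500 to under 5000 UMIs (610 and 3571 barcodes) its median log2 ratio was -0.31, and among those from 5000 to under 10000 UMIs (373 and 3460) it was -0.12.

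Tail genes were also mostly higher. Of 20 measured genes of the fibrous sheath, outer dense fibres and mitochondrial sheath, 17 were higher and 3 lay between, with a median log2 ratio of 2.95, and 18 had their highest level at 763.2 h. Odf2, a structural protein of the dense fibres, had 31.8, 60.0, 382, 1481 and 1867 CPM in time order (3.88, 3.83 to 3.92). Gpx4, the selenium peroxidase that hardens the mitochondrial sheath, went from 713 to 2211 CPM (3.10, 3.08 to 3.13). Smcp, another protein of that sheath, had 58.2, 812 and 2215 CPM at the last 3 times (14.0, 13.6 to 14.4).

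The highest ratios of the tail list were those of Spem1, needed to shed cytoplasm (2.03 to 58.7 CPM, 28.9, 24.9 to 33.6), and Spata3 (10.4 to 209 CPM, 20.2, 18.9 to 21.6). Akap4, the main scaffold of the fibrous sheath and an X-linked gene, had 12.5 and 158 CPM (12.7, 12 to 13.5). Fsip2, another sheath protein, had 192 and 204 CPM (1.06, 1.04 to 1.08). Genes of 1 structure thus differed widely in ratio. Odf2 had a UMI in 28.8% and 70.1% of thinned barcodes, against 17.1% and 26.6% of Sertoli-rich ones.

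Axoneme genes, for the motor core of the tail, were higher in 19 of 29 measured members, lower in 1 and between in 9, with a median log2 ratio of 1.47. Beside Meig1, the best covered were Rsph1, a radial spoke protein (1581 to 2982 CPM, 1.89, 1.87 to 1.90), and Dnah8, a dynein heavy chain (352 to 624 CPM, 1.77, 1.75 to 1.79), both short of the rule. Tekt3, a tektin of the microtubule doublets, had 16.2 and 168 CPM (10.4, 9.82 to 10.9). Ift88, a carrier of the transport that builds cilia, was the lower member (121 to 53.1 CPM, 0.439, 0.425 to 0.452). At 763.2 h 14 members had their highest level and at 556.8 h another 14.

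The CatSper calcium channel of the tail and related ion transporters had 9 of 12 measured members higher, 3 between and a median log2 ratio of 2.0. Tex40, an auxiliary subunit also known as Catsperz, had 0.623, 2.0, 213, 1385 and 1137 CPM in time order (6.51, 6.41 to 6.61). Catsper2, a pore subunit, went from 38.2 to 198 CPM (5.19, 5.01 to 5.38). Catsperd, an auxiliary subunit, had 17.2 and 83.9 CPM (4.88, 4.63 to 5.15). Catsper1, also a pore subunit, was under the filter at 1.17 and 3.44 CPM, and Catsper3 lay just short of the rule (1.99, 1.83 to 2.16).

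All 7 measured members of the list of testis serine kinases, which includes the substrate Tsks, were higher, with a median log2 ratio of 3.57. Tssk2 had 24.2 and 288 CPM (11.9, 11.4 to 12.4), and its neighbour Tssk1, similar in sequence, 22.0 and 188 (8.55, 8.17 to 8.95). Tssk6 had the highest ratio, 34.0 (31.2 to 37.1), from 5.91 to 201 CPM. Stk33 went from 138 to 342 CPM (2.47, 2.42 to 2.52), and Tssk5 was under the filter.

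The testis Adam proteases, surface proteins that sperm need to pass the oviduct and meet the egg, were higher in all 11 measured members, with a median log2 ratio of 2.56. Adam5 had 134 and 476 CPM (3.55, 3.48 to 3.62), Adam3 35.8 and 441 (12.3, 11.9 to 12.8) and Adam2 139 and 292 (2.11, 2.07 to 2.15). The filter left out 6 members of 17, among them Adam1a at 0.699 and 4.44 CPM. A member that passed mainly through its level at 556.8 h had to differ, so these counts are no measure of the whole family.

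Enzymes that germ cells use in place of somatic forms were higher in 12 of 21 measured members, lower in 1 and between in 8, with a median log2 ratio of 1.69. Gapdhs, the sperm glyceraldehyde phosphate dehydrogenase, had 22.0 and 358 CPM (16.2, 15.5 to 17.0) and the phosphoglycerate kinase Pgk2 31.5 and 297 CPM (9.42, 9.07 to 9.79). Ldhal6b went from 441 to 1475 CPM (3.34, 3.31 to 3.38). The respiratory chain forms Cox8c (1.92, 1.91 to 1.93), Cox6b2 (1.39, 1.38 to 1.41) and Cyct (0.748, 0.736 to 0.759) did not reach the rule. Slc25a31, the germ cell ATP carrier of mitochondria, was lower, from 241 to 99.8 CPM (0.414, 0.405 to 0.423).

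Genes of protein breakdown in late germ cells were mixed, with 6 of 14 measured members higher, 2 lower and a median log2 ratio of 0.57. March10, a ubiquitin ligase of elongating spermatids, went from 109 to 438 CPM (4.02, 3.93 to 4.10). Ubb, for ubiquitin itself, had a ratio of 1.16 (1.15 to 1.16) and Usp2 of 1.49 (1.47 to 1.51). Ube2b, a conjugating enzyme needed for sperm, had 334 and 269 CPM (0.805, 0.793 to 0.818). Fbxo39 had the highest ratio, 37.6 (29.97 to 47.8), from 0.831 to 31.2 CPM. Psma8, the proteasome subunit of spermatocytes, and Rnf8, a ligase of the DNA damage response, were lower with ratios of 0.373 (0.365 to 0.381) and 0.191 (0.176 to 0.206).

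**Figure D4:**
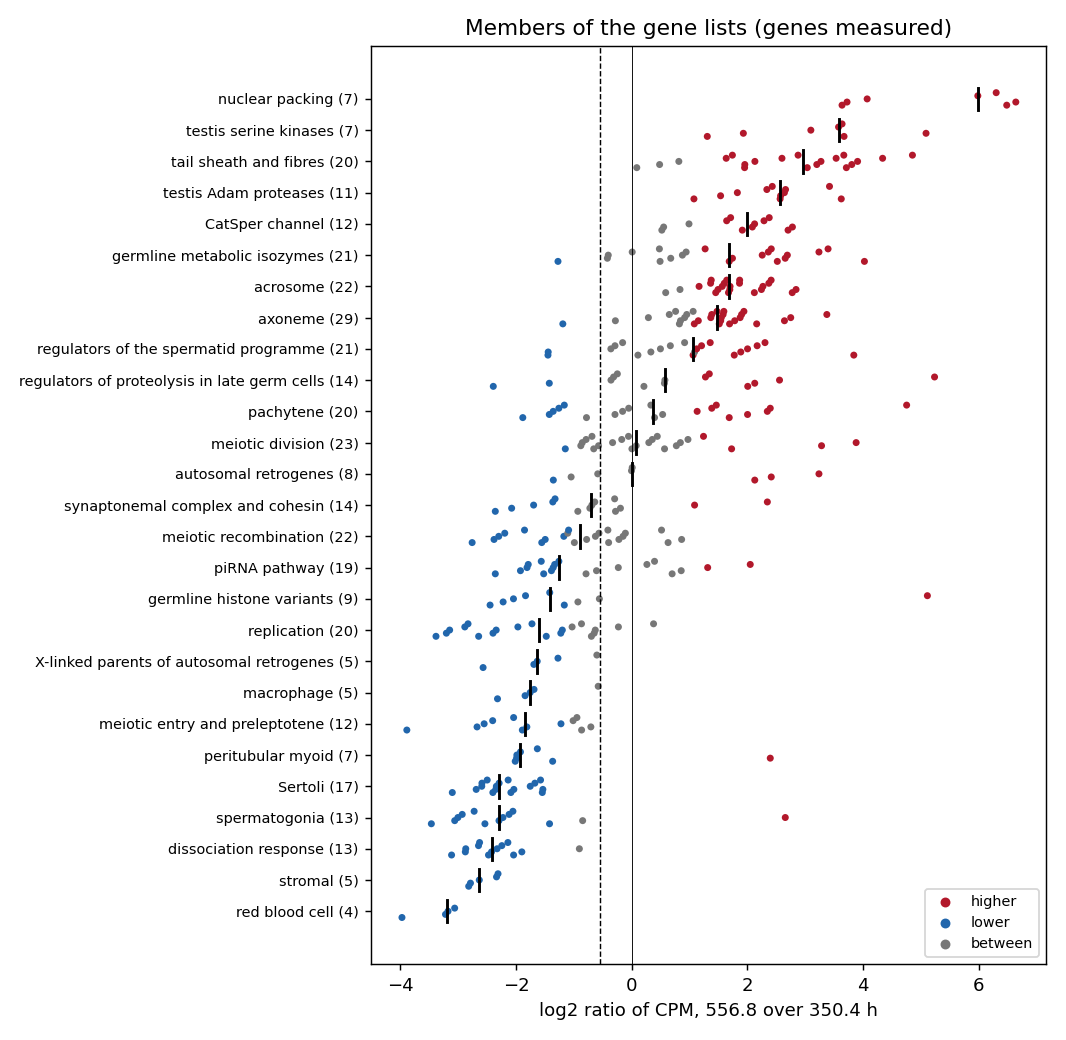
Each point is a measured member of a gene list, placed by its log2 ratio of CPM at 556.8 over 350.4 h (x axis), with the number of measured members after the list's name. Black bars are list medians and the dashed line is the median of all measured genes, -0.55. Lists of spermatid structures lie to the right, from the nuclear packing list at 5.98, and lists of early germ cells and somatic cells to the left.

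The lists of meiosis held genes in both directions, with shares to be read against the 20.6% higher and 35.7% lower among all measured genes. Of 20 measured pachytene genes 8 were higher, 5 lower and 7 between (median log2 ratio 0.36). Hspa2, the chaperone of pachytene spermatocytes, had 973 and 939 CPM (0.965, 0.957 to 0.974). Its ratio changed with depth, from 0.887 among barcodes of at least 20000 UMIs to 3.37 among those from 10000 to under 20000. Pou5f2, a POU factor, had 6.10, 164 and 45.9 CPM at the last 3 times (26.9, 24.7 to 29.3), and Insl6 had 72.0 and 366 CPM (5.08, 4.95 to 5.21). Tex101, a surface protein, was lower, from 1140 to 310 CPM (0.272, 0.268 to 0.275), as was Piwil1, from 545 to 228 CPM (0.418, 0.412 to 0.425).

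Of 23 genes of the meiotic divisions 18 lay between, 4 were higher and 1 was lower, with a median log2 ratio of 0.08. Ccna1, the cyclin that spermatocytes need to divide, had 0.186, 0.749, 10.6, 155 and 120 CPM in time order (14.7, 13.8 to 15.7). The kinase Aurkc, a germ cell Aurora, went from 5.08 to 49.4 CPM (9.72, 8.84 to 10.7) and Aurka from 71.8 to 237 (3.31, 3.22 to 3.40). Ccnb1, which mitotic cells use too, had 95.4 and 95.7 CPM. Cdca8, which works with the Aurora kinases, had 258 and 229 CPM (0.888, 0.873 to 0.904). The ratios of the general members Cdc20 (0.963, 0.946 to 0.980) and Cks2 (0.580, 0.573 to 0.586) were near or under 1.

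Synaptonemal complex and cohesin genes, which hold paired chromosomes together, had 5 of 14 measured members lower, 2 higher and 7 between (median log2 ratio -0.70), a share of lower genes at that of all measured genes. Sycp1, the central bridge, had 97.7, 478, 1395, 431 and 509 CPM in time order (0.309, 0.306 to 0.312), while Sycp3, of the axis, had 799 and 485 CPM (0.606, 0.600 to 0.613). Syce1, another central element gene, was higher, from 289 to 613 CPM (2.12, 2.09 to 2.15). Smc1b, a meiotic cohesin, had 638 and 396 CPM (0.621, 0.613 to 0.629). Recombination genes were lower in 9 of 22 measured members and higher in none, a share of lower genes near that of all measured genes (median -0.88, but 0.07 among barcodes from 5000 to under 10000 UMIs and also from 10000 to under 20000), with Tex15 from 276 to 97.9 CPM (0.355, 0.347 to 0.363) and the X-linked Tex11 from 102 to 15.1 (0.148, 0.141 to 0.156). Spo11, which cuts the DNA for recombination, had 35.5 and 64.6 CPM (1.82, 1.75 to 1.90), and Hsf2bp 59.5 and 85.1 (1.43, 1.38 to 1.48).

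Genes of earlier germ cells were mostly lower among those measured. Of 12 measured genes of meiotic entry 8 were lower and none was higher (median log2 ratio -1.85). Dazl, an RNA-binding protein of early germ cells, had 269, 788, 781, 190 and 160 CPM in time order (0.243, 0.240 to 0.247). Stra8, the retinoic acid target that opens meiosis, had 7.84, 504, 65.8, 32.7 and 16.6 CPM, with a ratio of 0.496 (0.476 to 0.517) that did not pass the rule. Its peak lay at 144 h. Meioc, which keeps cells in meiosis, went from 257 to 110 CPM (0.429, 0.420 to 0.438), and Prss50 had 101 and 61.9 (0.613, 0.595 to 0.633).

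Of 22 spermatogonial genes 13 were measured, of which 11 were lower and 1 was higher (median log2 ratio -2.29). The other 9, among them the stem cell genes Gfra1, Nanos2, Etv5, Ret and Lhx1, were under the filter. Uchl1 went from 242 to 55.9 CPM (0.230, 0.224 to 0.237), Kit, the receptor of differentiating spermatogonia, from 41.8 to 5.49 (0.131, 0.121 to 0.143) and Dmrt1, a regulator of entry into meiosis, from 85.5 to 7.77 (0.0908, 0.0847 to 0.0973). Id4, a marker of stem cells, had 84.9 and 47.2 CPM (0.556, 0.537 to 0.576). Dmrtb1, which acts at the passage from mitosis to meiosis, was the exception with 1.68, 43.0, 117, 739 and 528 CPM (6.29, 6.17 to 6.42). Because of it the summed level of the list was 907 and 917 CPM (ratio 1.01), opposite in sign to the median. Replication genes were lower in 13 of 20 measured members and higher in none (median -1.60), with Top2a from 502 to 215 CPM (0.428, 0.422 to 0.435) and Mki67 from 221 to 42.1 (0.190, 0.184 to 0.196), while Mcm7, of the replicative helicase, had 167 and 108 (0.647, 0.632 to 0.662).

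The piRNA pathway, small RNAs that guard the germ line, had 10 of 19 measured members lower, 2 higher and 7 between (median log2 ratio -1.26). Among all measured genes 35.7% were lower and 20.6% higher. Mael, of the pachytene piRNA machinery, had 444 and 584 CPM (1.32, 1.30 to 1.33), and Ddx4, the germ cell helicase, 487 and 282 (0.579, 0.571 to 0.587). Gtsf1, a cofactor of piwi proteins, was higher, from 290 to 721 CPM (2.49, 2.45 to 2.52), and so was Tdrd6, a protein of the chromatoid body of spermatids (4.14, 4.01 to 4.27). Among barcodes from 10000 to under 20000 UMIs the median of this list was 0.41 and the log2 ratio of Piwil1 was 0.93, both opposite in sign.

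The 12 genes with the lowest ratios, ranked likewise, were a mixed set of dividing cells, early germ cells and other cells. Cenpa, the histone of the centromere, had 113, 200, 144, 9.20 and 15.5 CPM in time order (0.0640, 0.0601 to 0.0681). Ccnd1, a cyclin of the first growth phase, went from 111 to 7.49 CPM (0.0673, 0.0627 to 0.0721) and Ccna2, the somatic A-type cyclin, from 75.0 to 6.59 (0.0879, 0.0815 to 0.0947). Ccna2 and Ccna1 thus changed places. Gsta2, a glutathione transferase, had the lowest ratio, from 50.4 to 3.03 CPM (0.0601, 0.0538 to 0.0670), and stood at 406 CPM in Sertoli-rich barcodes at 350.4 h.

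The X-linked Esx1 and Hmgb3 had ratios of 0.0677 (0.0622 to 0.0736) and 0.1002 (0.0959 to 0.105). Selm, Fabp5, Rhob and Zfp36l2 had ratios of 0.0805, 0.0873, 0.0900 and 0.0917. Ptma, prothymosin alpha, a small acidic partner of histones, was the most abundant of the 12, with 2271, 2590, 1814, 200 and 257 CPM in time order (0.110, 0.109 to 0.112). All 12 were lower within each of the 5 ranges of UMIs per barcode. The range from 1000 to under 2500 UMIs held 331358 UMIs at 556.8 h. There Selm and Zfp36l2 had 0 UMIs, and Gsta2, Ccnd1, Esx1, Ccna2 and Rhob had 3.02 CPM, all under the limit of 3 counts.

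The 10 largest losses of CPM under the same exclusions also held Malat1, a nuclear RNA (3064 to 938 CPM, 0.306, 0.304 to 0.308), and the chaperones Hsp90ab1 (1807 to 460, 0.255, 0.252 to 0.257) and Hspa8 (1015 to 183, 0.180, 0.178 to 0.183). Hmgb2, a chromatin protein of spermatocytes, went from 1743 to 411 CPM (0.236, 0.233 to 0.238) and Chchd2 from 1508 to 723 (0.479, 0.475 to 0.484). Eef1a1, the translation factor, had 2482 and 1463 CPM, and its ratio of 0.590 (0.586 to 0.593) did not pass the rule. Ribosomal protein genes took 12.6% and 7.26% of the UMIs. Of 98 measured, 45 were lower and 1 was higher, against 35.7% and 20.6% of all measured genes.

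Markers of somatic cells moved with these results. All 17 measured Sertoli markers were lower (median log2 ratio -2.29), and the list's summed level was 3717 and 808 CPM. Clu, a secreted chaperone, had 1610, 2500, 650, 148 and 124 CPM in time order (0.228, 0.224 to 0.232), Ctsl, a secreted protease, went from 676 to 133 (0.196, 0.193 to 0.200) and Cst12, a cystatin, from 546 to 133 (0.244, 0.240 to 0.248). Of the defining Sertoli markers Sox9 had 37.1 and 6.16 CPM and Amh 4.47 and 0.366.

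Among 10 Leydig markers 2 passed the filter: Fdx1, which germ cells also make, had 158 and 217 CPM (1.38, 1.35 to 1.41), and Scarb1 31.8 and 14.2 (0.446, 0.420 to 0.474). Insl3, Hsd3b1, Hsd3b6 and Lhcgr, which define Leydig cells, had 2.68, 2.48, 5.78 and 0.536 CPM at 350.4 h and no UMI at 556.8 h, where 3 counts would be 0.0255 CPM. The list's summed level was 224 and 233 CPM, so its median log2 ratio of -0.35 differs from it in sign.

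Peritubular myoid markers were lower in 6 of 7 (median -1.92; Acta2 193 to 48.7 CPM, 0.252, 0.245 to 0.260, and Myl9 101 to 25.2), with Actg2, a smooth muscle actin, at 13.7 and 72.2 CPM (5.26, 4.96 to 5.58). Stromal markers were lower in 5 of 5 (Col1a2 33.9 to 5.46 CPM), macrophage markers in 4 of 5 (Cd74 13.5 to 3.99 CPM and Fcer1g 12.1 to 2.43, with C1qb between at 9.25 and 6.19), the single measured endothelial marker Egfl7 had 14.2 and 3.75 CPM, and red blood cell genes were lower in 4 of 4 (Hbb-bs 320 to 38.4 CPM). The filter left out 5 of 10 stromal, 5 of 10 macrophage and 7 of 8 endothelial markers. A marker that passed mainly through its level at 350.4 h had to differ, so these counts are no measure of the whole lists. At 350.4 h 4 barcodes held 50% of the red blood cell UMIs. Genes of the response to dissociation, induced while tissue is digested, were lower in 12 of 13 (median -2.42; Jun 144 to 30.4 CPM and Fos 133 to 15.3, with Jund between at 161 and 86.3), their summed level being 876 and 208 CPM. The part of these cell types and of that response in the lower genes was not tested.

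The X chromosome, silenced in pachytene spermatocytes and then partly active in spermatids, took a smaller share of the suspension. X-linked genes held 3.37%, 3.25%, 1.55%, 0.742% and 0.944% of nuclear UMIs in time order, a ratio of 0.479 between 556.8 and 350.4 h. Of 352 measured X genes 68.2% were lower and 13.9% higher, with a median log2 ratio of -1.73. Among 10668 autosomal genes 34.6% were lower and 20.8% higher, with a median of -0.51. No autosome had a ratio of shares as low, the range being 0.916 to 1.93.

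**Figure D5:**
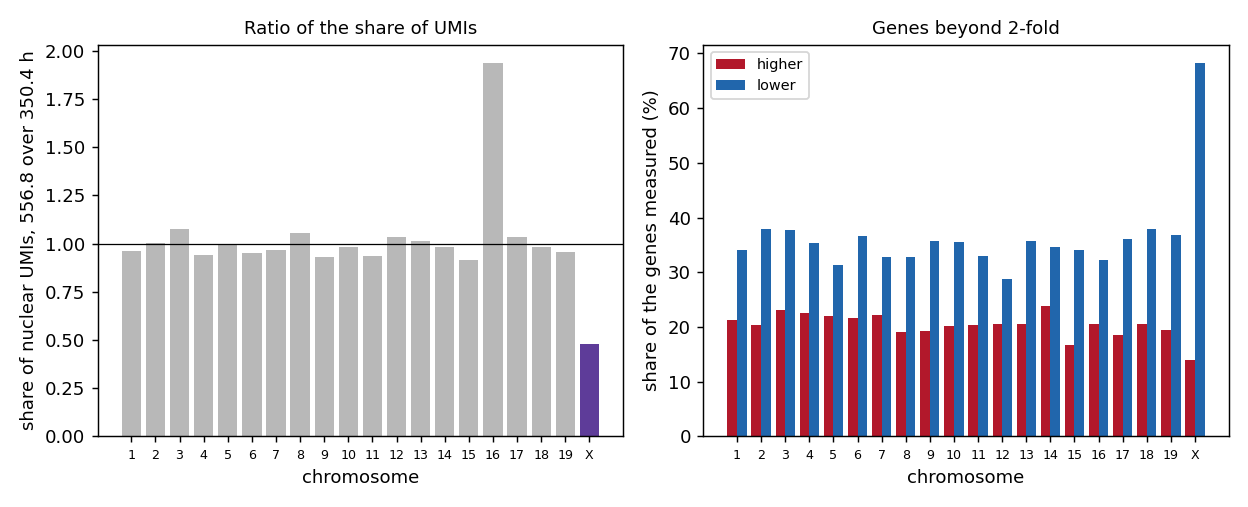
Left, the share of nuclear UMIs from each autosome and the X chromosome at 556.8 h over that at 350.4 h (y axis, ratio, line at 1). Right, the percentage of measured genes of each chromosome that were higher or lower by the 2-fold rule. The X chromosome has the lowest ratio, 0.479, and chromosome 16, which holds Prm1, Prm2, Prm3 and Tnp2, the highest, 1.93.

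The highest autosomal ratio, 1.93 for chromosome 16, was 1.01 without the 4 packing genes there, so that cluster carried it. Of the X genes with the highest levels, Tmsb4x, for an actin-binding peptide, went from 698 to 143 CPM (0.205, 0.202 to 0.209) and Usp26 from 211 to 55.2 (0.262, 0.255 to 0.270), while Prdx4, a peroxiredoxin, had 173 and 139 CPM (0.803, 0.786 to 0.821). Other X genes were higher. Cypt1, of a family of basic spermatid proteins, had 17.5 and 226 CPM (12.9, 12.3 to 13.6), Tsga8 55.1 and 245 (4.44, 4.31 to 4.57) and Cylc1, of the sperm head skeleton, had a ratio of 9.63 (8.90 to 10.4). The same X chromosome thus held genes in both directions.

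Autosomal retrogenes, copies that can stand in for silenced X-linked parents, were mixed. Of 8 measured copies 3 were higher, 1 was lower and 4 lay between, with a median log2 ratio of 0.00 beside -0.55 over all measured genes. Their summed level was 1149 and 2861 CPM (2.49, 2.47 to 2.51). Of 5 measured X-linked parents 4 were lower (median -1.63), near the 68.2% lower and median of -1.73 of all measured X genes. Cetn1, a centrin, had 397 and 1733 CPM (4.37, 4.32 to 4.42) beside 38.8 and 16.1 for its X-linked parent Cetn2 (0.414, 0.391 to 0.438). Rpl10l, a ribosomal protein, had 110 and 109 CPM (0.998, 0.972 to 1.02) beside 333 and 56.1 for Rpl10 (0.169, 0.164 to 0.173). Gk2, a glycerol kinase, went from 71.7 to 382 CPM (5.32, 5.19 to 5.46), and its parent was under the filter. Of the other X-linked parents measured, Cstf2 had 30.4 and 20.0 CPM (0.659, 0.624 to 0.697). Its copy Cstf2t had 32.3 and 15.6 CPM, a lower ratio than its parent (0.484, 0.457 to 0.514). Utp14b had 34.6 and 23.1 CPM (0.666, 0.633 to 0.701) beside 28.0 and 8.68 for its parent Utp14a (0.310, 0.288 to 0.334). Pdha2 had 189 and 190 CPM (1.01, 0.987 to 1.03), and Rbmxl2 was lower, from 283 to 111 CPM (0.391, 0.383 to 0.400). Copies near-identical to a paralog can share or lose reads in the authors' counting, which also holds for the Cypt and Klk1b families.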

How the data were processed

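Droplet single-cell RNA libraries of whole testis were analysed, 1 per time. The authors deposited matrices of unnormalized UMI counts (27998 genes by barcode), which the file headers attribute to Cell Ranger 3.0.2. The submitters' processing notes name mm10 and Seurat 4.3.0.1 without their role. The sources used here do not state how reads were aligned or cells called.

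Counts were summed over barcodes with at least 1000 UMIs and under 50% mitochondrial UMIs and scaled to CPM, counts per 1000000. No doublet caller was run. Ratios have exact 95% conditional binomial intervals (scipy 1.17.1, numpy 2.4.6, pandas 2.3.3, Python 3.11.15), which cover counting error only and were tested on simulated data. Genes needed a mean of 5 CPM over both libraries. A count of 0 is given with the limit of 3 counts.

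Named genes were the 12 highest and 12 lowest by the interval bound nearest 1 (at least 50 CPM in the higher library, beyond 2-fold, without mitochondrial, ribosomal protein, haemoglobin and predicted genes), the 10 largest gains and losses of CPM, and the 3 members of each of 29 lists with the highest mean CPM. Further genes named were chosen after their values were seen. The members and lists were chosen with earlier results of these data known. Chromosomes and positions come from GENCODE M21 (GRCm38), which matched 98.7% of features. Alternatives covered barcode and mitochondrial limits, weights, totals, filters, fold and depth ranges.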

Additional observations from a re-analysis of the deposited data

How the results depend on the processing

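With 1 library per time there is no replicate to leave out. No paired analysis was possible because the labels state no link between the 2 libraries, and no result comes from a test. Of 14 other settings, and 6 more chosen after seeing the data, the following moved a count by over 1.5 times. Against 2273 genes higher and 3948 lower, no filter beyond 3 counts gave 4037 and 6526, a mean of 50 CPM 903 and 859, and 4-fold in place of 2-fold 1191 and 1295. Centring on the median left 2376 genes lower and 3106 higher, so that the higher genes were 56.7% of those called in place of 36.5%. Within depth ranges, barcodes from 1000 to under 2500 UMIs gave 919 higher and 1031 lower, those from 2500 to under 5000 UMIs 1037 higher, and those from 5000 to under 10000 UMIs 1380 higher and 2100 lower. These ranges hold fewer UMIs, 2818698, 2126913 and 2663853 at 350.4 h, so their intervals are wider. The first held 1887 barcodes at 350.4 h but 134 barcodes and 331358 UMIs at 556.8 h. No barcode at 556.8 h lay under 2443 UMIs, so depth was not matched within the first range. Of the genes higher over all barcodes, 138, 225 and 141 had a ratio below 1 within these ranges in turn, and 2 and 3 in the deeper ranges. Lists with at least 50% of measured members higher numbered 8, and 5 at 4-fold, 3, 2, 5 and 13 in the first 4 depth ranges. Lists with at least 50% lower numbered 14, and 5 at 4-fold, 2 in the first, 9 in the third and 8 in the fourth depth range.

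Of 113 named genes 20 changed sign in at least 1 setting, 8 of them genes called over all barcodes. These 8 were called lower and had a positive log2 ratio in a depth range, each up to the next range. It was 0.29 for Zcwpw1 and 0.10 for Top2a from 5000 UMIs, 0.93 for Piwil1 from 10000 and 2.77 for Cd74 from 2500. From 1000 UMIs it was 0.59 for Dcn, 0.0886 for Mfap4, 1.21 for Hba-a1 and 1.67 for Hba-a2. In these ratios 3 counts stand in for 0, and the range from 1000 UMIs held 331358 UMIs at 556.8 h. No direction is therefore read from the values of Dcn, Mfap4, Hba-a1 and Hba-a2. The other 12 of the 20 lay between, among them Sycp3 (0.69 from 10000 UMIs), Id4 (1.03 from 10000), Cks2 (0.62 from 10000), Prss50 (0.47 from 5000), Hspa2 (1.75 from 10000), C1qb (4.95 from 20000) and, downward, Ybx2 (-0.06 from 1000). Of 29 list medians 6 changed sign: acrosome (-0.31 from 2500 and -0.12 from 5000 UMIs), piRNA (0.41 from 10000), recombination (0.07 from 5000 and from 10000), Leydig (0.46 at a mean of 50 CPM), meiotic division (-0.17 from 20000) and autosomal retrogenes (-0.22 under 10% mitochondrial UMIs). The cause was not tested. The X ratio stayed between 0.413 and 0.611 under the 10 settings run on all depths and between 0.361 and 0.529 within the 5 depth ranges.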

Other observations

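The genes that came on included many without a protein product or a given name. Of 2268 higher genes in the annotation 424 (18.7%) were long noncoding, against 5.63% of all measured genes and 1.06% of lower ones. Protein-coding genes with a single exon made up 7.40% of the coding higher genes, 2.75% of all measured ones and 2.05% of the lower ones. Predicted models and clones were left out of the named genes by rule, but several stood beside the protamines in ratio. The clone gene 1700027A15Rik had 0, 0, 4.73, 451 and 636 CPM in time order and a ratio of 95.3 (86.7 to 105). It is annotated on the opposite strand across Tnp1, and the sources used here do not state whether counting used the strand, so its UMIs and those of Tnp1 may not be separable. 1700009J07Rik had 0.568 and 55.6 CPM (97.9, 74.5 to 131), and 1700042G07Rik 3.45 and 255 (73.9, 66.2 to 82.9). 1700016C15Rik had 1.5, 126 and 49.2 CPM at the last 3 times (84.3, 71.3 to 101) and was thus lower again at 763.2 h. Among lower ones Gm14226 went from 106 to 7.69 CPM (0.0724).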
